A study of Mus musculus with 6 samples.

Results

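Polyamine metabolism was followed here through 10 genes: *Arg2*, *Odc1*, *Oaz1*, *Oaz2*, *Azin1*, *Amd1*, *Srm*, *Sms*, *Sat1* and *Smox*. They were taken as a named list, and each symbol was matched through GENCODE M21 to the Ensembl identifier of 1 row in the deposited table of 54532 genes. All 10 passed the filter on low counts, which left 16017 genes to test. The libraries came from whole kidneys of male mice on a C57BL/6 background, at an age not given in the sources used here. Control kidneys carried KsprtTA, a doxycycline-dependent activator under the Ksp promoter, which is active in tubular epithelium. KSPAPN kidneys carried KsprtTA together with TRE-adiponectin, an adiponectin transgene that this activator switches on. Both groups ate chow with doxycycline at 600 mg/kg for 4 days, so both the activator and the drug were shared by the groups. Each group had 3 libraries and each library was a pool of 3 mice, so the p-values below measure the spread between pools. The labels describe the Control genotype as wild type, whereas the study's methods name KsprtTA mice. The labels give kidney as the tissue, although their extraction text speaks of liver, and tubule transcripts dominated the markers examined below.

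Putrescine, spermidine and spermine are small positively charged molecules that bind nucleic acids and are needed for growth and translation. Arginase makes ornithine, ornithine decarboxylase turns it into putrescine, and spermidine and spermine synthases then add aminopropyl groups donated by decarboxylated S-adenosylmethionine. Antizymes bind ornithine decarboxylase, send it to the proteasome and block polyamine uptake, while antizyme inhibitors resemble the enzyme and trap antizyme. In the mouse kidney ornithine decarboxylase is a classical androgen-responsive enzyme of the proximal tubule.

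Antizyme is made only if ribosomes move forward by 1 base at a stop codon, and polyamines stimulate that shift. The 30 bases around this site are shown for both antizymes because they are where the product's level is set after transcription, which a read count per gene does not measure. The capitals mark the last codon before the shift and the stop codon that is skipped, on the plus strand of GRCm38 and within coding exons of GENCODE M21. The *Oaz1* site lies at chr10:80828280-80828309 and the *Oaz2* site at chr9:65686257-65686286.
Oaz1: cctcggtggtgcTCCTGAtgtccctcaccc
Oaz2: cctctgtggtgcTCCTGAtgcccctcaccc
The stretches were identical at 28 of 30 bases. The coding models skip the T of the stop codon, at position 80828295 for *Oaz1* and 65686272 for *Oaz2*.

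Levels are given as FPKM, fragments scaled by gene length and library depth, the unit in which genes can be compared. *Odc1* was the most abundant member, between 130.3 and 230.3 FPKM over the 6 libraries, and held rank 182 among the genes tested in Control kidneys. *Oaz1* followed between 88.9 and 151 FPKM, with rank 328. Their ranges overlapped, and *Odc1* stood above *Oaz1* in 5 of 6 libraries. *Sat1*, between 63.3 and 84.4 FPKM, and *Oaz2*, between 47.1 and 57.7 FPKM, each kept a range of their own. *Azin1*, between 16.6 and 21.3 FPKM, and *Amd1*, between 13.1 and 18.6 FPKM, overlapped, and *Azin1* was the higher in 5 of 6 libraries. The level of *Amd1*, and so its place in the order, is uncertain, because most of its sequence is shared with other genes. *Srm*, between 8.62 and 12.4 FPKM, lay above *Sms*, between 5.95 and 8.86 FPKM, in 6 of 6 libraries although the ranges met. *Arg2*, between 3.17 and 5.02 FPKM, and *Smox*, between 1.56 and 2.55 FPKM, were the least abundant, so the order ran from the rate-limiting decarboxylase and its antizyme down to the mitochondrial arginase and spermine oxidase.

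**Figure D1:**
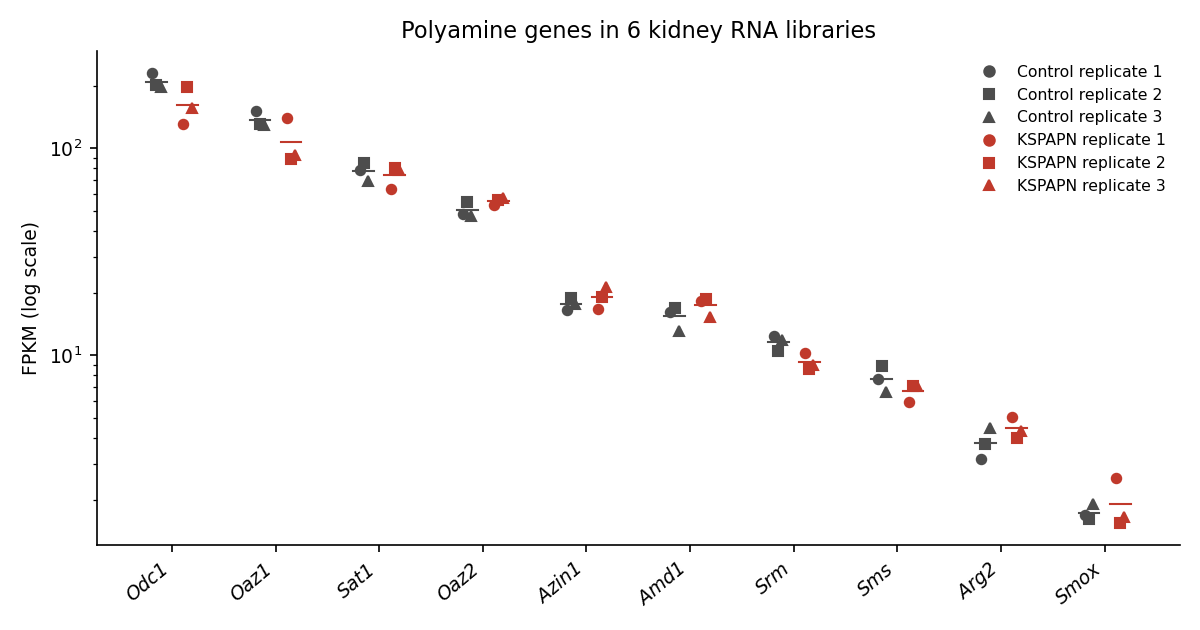
FPKM on a log axis for the 10 polyamine genes, ordered by mean level, with Control libraries in grey, KSPAPN libraries in red, a symbol for each replicate number and a short line at each group mean. The groups overlapped for every gene except *Srm*, and the KSPAPN symbols were spread most widely for *Odc1*, *Oaz1* and *Smox*.

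The transgene was seen as labelled. *Adipoq*, the adiponectin gene, had at most 2 counts in any Control library and between 693 and 937 FPKM in KSPAPN libraries, a log2 fold change of 13.73 (adjusted p = 2.97e-09, edgeR). The total count was between 17183358 and 18205023 per Control library and between 18150442 and 20871173 per KSPAPN library.

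No member passed the edgeR test at an adjusted p under 0.05, over a background of 2.65% of all genes tested, 2.25% lower and 0.393% higher in KSPAPN kidneys. At an unadjusted p under 0.05, 1 member of 10 passed, *Odc1*, where 18.7% of all genes did. Under DESeq2 0 members passed after adjustment, where 6.33% of genes did, and 2 before it (*Odc1* and *Oaz1*, both lower), where 17.5% did. In the edgeR fit 5 members had a positive and 5 a negative log2 fold change with a median of 0.02, and the median of all genes tested was 0.01. FPKM of the groups did not overlap for 1 member, *Srm*, against 24.4% of all genes. On each of these counts the members' share was below or near the background.

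**Figure D2:**
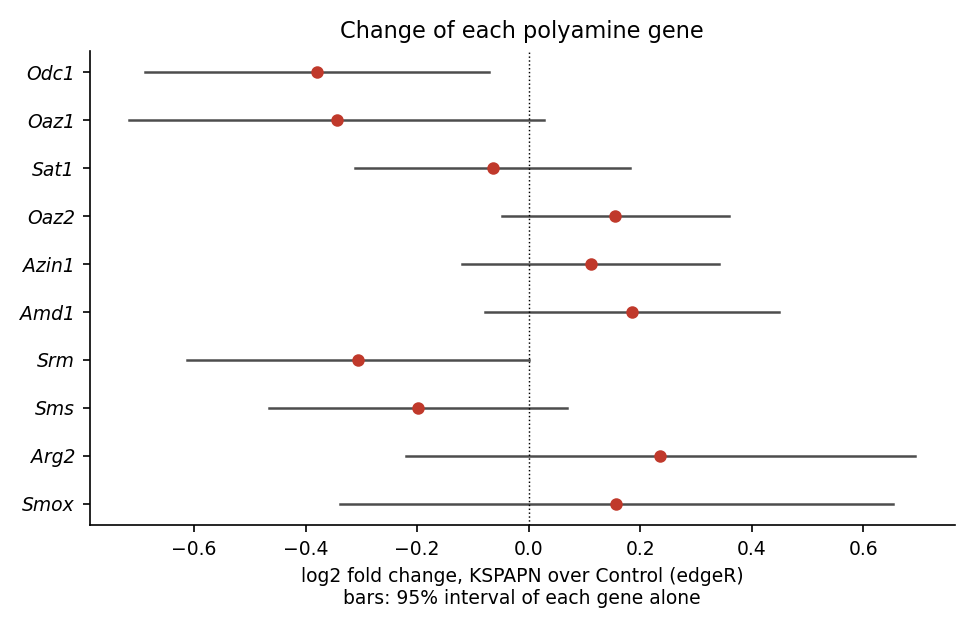
Log2 fold change of KSPAPN over Control from edgeR for each polyamine gene, ordered by mean level, with bars for the 95% interval of that gene alone. The interval of *Odc1* ended below 0, that of *Srm* touched 0, and the other 8 spanned it.

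Ornithine for the pathway comes in part from *Arg2* (ENSMUSG00000021125, chr12:79130777-79156301), the mitochondrial arginase and the main arginase of the kidney. Its FPKM was 3.17, 3.76 and 4.46 in Control replicates 1 to 3 and 5.02, 3.98 and 4.33 in KSPAPN replicates 1 to 3. The groups overlapped, with KSPAPN replicate 1 the highest library of all. These values rested on between 84 and 167 counts per library, and the log2 fold change was 0.24 with a 95% interval from -0.22 to 0.69 (SE 0.21, edgeR adjusted p = 0.586).

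*Odc1* (ENSMUSG00000011179, chr12:17544794-17551505) encodes ornithine decarboxylase, the enzyme that makes putrescine and sets the pace of the pathway. Its level was 230.3, 203 and 197 FPKM in the Control replicates and 130.3, 197 and 156 FPKM in the KSPAPN replicates. KSPAPN replicate 2 only just reached the lowest Control library, and the other KSPAPN libraries lay below every Control library. The mean was 210.0 ± 17.9 FPKM in Control and 161 ± 33.5 FPKM in KSPAPN kidneys (SD, n = 3 each). The log2 fold change of -0.38 (SE 0.14) had a 95% interval from -0.69 to -0.07, which is a change of -23.1% with an interval from -38.0% to -4.80%. The unadjusted p of 0.0207 became 0.178 after adjustment over all genes (edgeR), so the difference did not pass.

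*Odc1* also has processed copies in the genome. Of the 100-base stretches in its longest transcript, 19.6% were present unchanged in transcripts of 8 other genes. Among the 8, *Rps7-ps2* is named as a pseudogene of another gene. *Gm7993*, also among them, carried 900, 5151 and 2521 counts in the Control libraries and 1963, 1186 and 2504 in the KSPAPN libraries. How reads that match several places were counted is not given in the sources used here, so part of these counts may belong to *Odc1*. The counts of all 8 genes were added to those of *Odc1*, a setting chosen after seeing the data, and most of the added counts were of *Gm7993*. The sums were 15497, 17270 and 14364 counts in Control and 12414, 13479 and 13575 counts in KSPAPN libraries. On these unscaled sums the groups no longer overlapped, although the KSPAPN libraries were on average deeper, and the log2 fold change was -0.46 (SE 0.13, edgeR adjusted p = 0.0959). The share of all genes without overlap on unscaled counts was not computed.

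Androgen-responsive genes and straight tubule markers were read in the same libraries. Of 7 genes known as androgen-responsive in mouse kidney, 7 had a negative log2 fold change with a median of -0.52. Of all 16017 genes tested, 7710 were negative, with a median of 0.01. As lower, 2 of the 7 passed the test, where 2.25% of all genes did. These were *Cyp2e1* at -0.82 and *Cyp7b1* at -2.10 (edgeR adjusted p = 0.0399 and 0.00581). The summed FPKM of that list ranged from 23117 to 35211 in Control and from 16325 to 27306 in KSPAPN libraries, and most of it was *Kap*, whose groups overlapped. For 3 of the 7 (*Cyp4b1*, *Cyp2e1* and *Cyp7b1*) the groups did not overlap, where 24.4% of all genes did not. Of 6 markers of the proximal straight tubule, 4 passed the test as lower, where 2.25% of all genes did. *Aadat* had a positive value of 0.22 (edgeR adjusted p = 0.477), and the median of the 6 was -1.02. Their summed FPKM was between 753 and 976 in Control and between 356 and 599 in KSPAPN libraries. The lists were not separate, since *Cyp7b1* and *Slco1a1* stood in both, and *Slco1a1*, at -0.52, was the median of the androgen-responsive list. In that list *Gusb*, at -0.08, and *Acsm3*, at -0.05, were near 0. The part of either list in the *Odc1* values was not tested, and in RNA from whole kidneys fewer cells of a type cannot be told apart from less RNA per cell.

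*Oaz1* (ENSMUSG00000035242, chr10:80826656-80829290) encodes the main antizyme, and its shift site is printed above. Its level was 151, 131 and 129 FPKM in the Control replicates and 140.5, 88.9 and 92.3 FPKM in the KSPAPN replicates. KSPAPN replicate 1 sat inside the Control range, whereas replicates 2 and 3 lay well below it. The log2 fold change was -0.34 (SE 0.17) with a 95% interval from -0.72 to 0.03 and an adjusted p of 0.304 (edgeR). The size of the value moved with the library left out, while its sign stayed. Without KSPAPN replicate 1 it was -0.58 (edgeR adjusted p = 0.0135, in a fit that called 162 genes higher and 571 lower) and without KSPAPN replicate 2 it was -0.22 (edgeR adjusted p = 0.578). Its pseudogene *Oaz1-ps* shared 11.2% of the 100-base stretches and held between 38 and 73 counts per library.

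*Oaz2* (ENSMUSG00000040652, chr9:65668001-65690300), a second antizyme with the same kind of shift site, gave 48.3, 55.2 and 47.1 FPKM in Control and 53.4, 56.0 and 57.7 FPKM in KSPAPN libraries. Control replicate 2 reached into the KSPAPN range and the other Control libraries lay below it. It differed by 0.16 on the log2 scale, with a 95% interval from -0.05 to 0.36 (SE 0.09, edgeR adjusted p = 0.395). The antizymes thus had fitted values of opposite sign, and neither passed the test.

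*Azin1* (ENSMUSG00000037458, chr15:38487427-38519266), the antizyme inhibitor, gave 16.6, 19.0 and 17.6 FPKM in Control and 16.8, 19.1 and 21.3 FPKM in KSPAPN libraries. The values were interleaved, with only KSPAPN replicate 3 clearly above the Control range. The log2 fold change of 0.11 had a 95% interval from -0.12 to 0.34 (SE 0.10, edgeR adjusted p = 0.615), and its sign turned, to -0.040, when trends against GC content and transcript length were removed.

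For 3 pairs of genes the ratio of RNA levels was taken inside each library, where the scaling of the library cancels. *Azin1* and *Odc1* were set over *Oaz1* because antizyme acts by binding their products. *Sat1* was set over *Srm* because the enzymes act in opposite directions. These are ratios of RNA, and the proteins were not measured. The *Azin1* to *Oaz1* ratio of FPKM was 0.110, 0.146 and 0.136 in Control and 0.120, 0.215 and 0.231 in KSPAPN libraries. KSPAPN replicates 2 and 3 lay above all Control libraries and KSPAPN replicate 1 did not. The mean log2 ratio was 0.48 higher in KSPAPN kidneys (SD 0.21 in Control and 0.52 in KSPAPN, n = 3 each), with p = 0.3 in a two-sided exact permutation test over 20 arrangements, for which the smallest possible p is 0.1. Without KSPAPN replicate 1 the difference was 0.78.

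The *Odc1* to *Oaz1* ratio, decarboxylase RNA over antizyme RNA, was 1.52, 1.56 and 1.52 in Control and 0.927, 2.21 and 1.69 in KSPAPN libraries. The Control libraries were nearly identical and the KSPAPN libraries fell on both sides of them, so the SD of the log2 ratio was 0.02 in Control and 0.64 in KSPAPN kidneys. The mean log2 ratio differed by -0.02 (exact permutation p = 1.0). KSPAPN replicate 1, the most deeply sequenced library, combined the lowest *Odc1* with the highest *Oaz1* of its group, and without it the difference was 0.34.

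**Figure D3:**
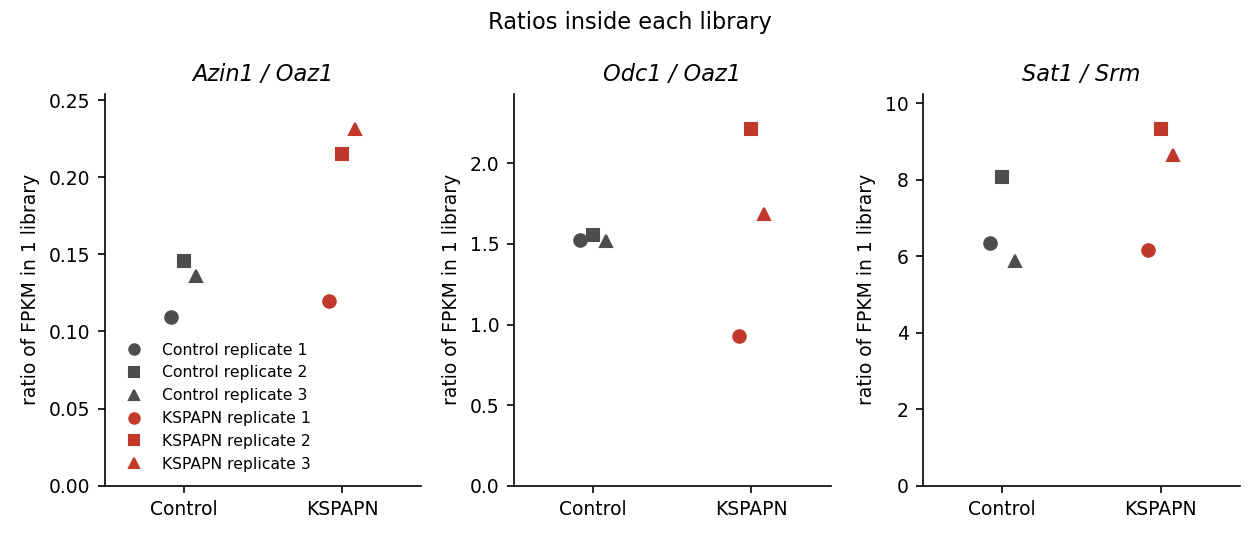
Ratio of FPKM inside each library for *Azin1* to *Oaz1*, *Odc1* to *Oaz1* and *Sat1* to *Srm*, with Control in grey, KSPAPN in red and a symbol for each replicate number. In all 3 panels KSPAPN replicate 1 lay below the other KSPAPN libraries, and for *Odc1* to *Oaz1* the Control libraries sat between 1.52 and 1.56 inside a KSPAPN range of 0.927 to 2.21.

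*Amd1* (ENSMUSG00000075232, chr10:40287458-40302186) encodes S-adenosylmethionine decarboxylase, which makes the aminopropyl donor. It gave 16.2, 16.98 and 13.1 FPKM in Control and 18.4, 18.6 and 15.3 FPKM in KSPAPN libraries, and the groups overlapped through replicate 3 of KSPAPN. The log2 fold change was 0.19 with a 95% interval from -0.08 to 0.45 (SE 0.12, edgeR adjusted p = 0.440). *Amd2* and the *Amd* pseudogenes held 76.4% of the 100-base stretches of the transcript, so the value is uncertain. These 4 genes together had between 32 and 55 counts per library. Such counts cannot settle it, because reads with several matches may have been left out for all of these genes.

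The synthases both had negative fitted values. *Srm* (ENSMUSG00000006442, chr4:148591503-148594993), spermidine synthase, gave 12.4, 10.5 and 11.9 FPKM in Control and 10.3, 8.62 and 9.02 FPKM in KSPAPN libraries. It was the only member whose groups did not overlap, by the small gap between Control replicate 2 and KSPAPN replicate 1. The mean was 11.6 ± 1.0 FPKM in Control and 9.31 ± 0.867 FPKM in KSPAPN kidneys (SD, n = 3 each), and the log2 fold change of -0.31 (SE 0.14) had an unadjusted p of 0.050 and an adjusted p of 0.268 (edgeR). With trends against GC content and transcript length removed it was -0.06 (edgeR adjusted p = 0.823). *Sms* (ENSMUSG00000071708, chrX:157443855-157492287), spermine synthase, gave 7.66, 8.86 and 6.66 FPKM in Control and 5.95, 7.08 and 7.11 FPKM in KSPAPN libraries. These overlapped, with a log2 fold change of -0.20 and a 95% interval from -0.47 to 0.07 (SE 0.12, edgeR adjusted p = 0.410).

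On the catabolic side, *Sat1* (ENSMUSG00000025283, chrX:155213132-155216449) encodes spermidine/spermine acetyltransferase, which marks polyamines for export or oxidation. Its level was 78.6, 84.4 and 69.8 FPKM in Control and 63.3, 80.4 and 78.2 FPKM in KSPAPN libraries. KSPAPN replicate 1 was the lowest library and the other KSPAPN libraries fell inside the Control range. Its log2 fold change was -0.06, with a 95% interval from -0.31 to 0.18 (SE 0.11, edgeR adjusted p = 0.802), and its sign turned, to 0.0017, with total counts as the only scaling.

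*Smox* (ENSMUSG00000027333, chr2:131491496-131525922), spermine oxidase, gave 1.69, 1.61 and 1.91 FPKM in Control and 2.55, 1.56 and 1.66 FPKM in KSPAPN libraries. KSPAPN replicate 1 was the highest of all and the other KSPAPN libraries lay within or just under the Control range. This gave a log2 fold change of 0.16 with a 95% interval from -0.34 to 0.65 (SE 0.22, edgeR adjusted p = 0.755), and it was -0.094 without that library. The *Sat1* to *Srm* ratio, acetyltransferase RNA over spermidine synthase RNA, was 6.34, 8.07 and 5.87 in Control and 6.16, 9.33 and 8.66 in KSPAPN libraries. It overlapped between groups, with a mean log2 difference of 0.24 (SD 0.24 and 0.32, exact permutation p = 0.3). Over the 3 ratios the adjusted p was 0.45, 1.0 and 0.45 for *Azin1* to *Oaz1*, *Odc1* to *Oaz1* and *Sat1* to *Srm*.

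When single libraries were dropped, the fitted change on the log2 scale stayed negative for *Odc1* (-0.54 to -0.24), *Oaz1* (-0.58 to -0.22), *Srm* (-0.38 to -0.25) and *Sms* (-0.29 to -0.09). It stayed positive for *Oaz2* (0.11 to 0.23), *Azin1* (0.03 to 0.21), *Amd1* (0.09 to 0.27) and *Arg2* (0.12 to 0.37). It changed sign for *Sat1* (-0.13 to 0.047) and *Smox* (-0.094 to 0.29). For *Odc1* the extremes came from KSPAPN libraries, at -0.24 without replicate 1 and -0.54 without replicate 2, and its adjusted p was between 0.0695 and 0.486 in these fits (edgeR). Removing trends against GC content and transcript length moved *Odc1* to -0.25, *Oaz1* to -0.23 and *Amd1* to 0.12, and *Oaz2* to 0.31 and *Smox* to 0.28, with adjusted p between 0.105 and 0.645 (edgeR).

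**Figure D4:**
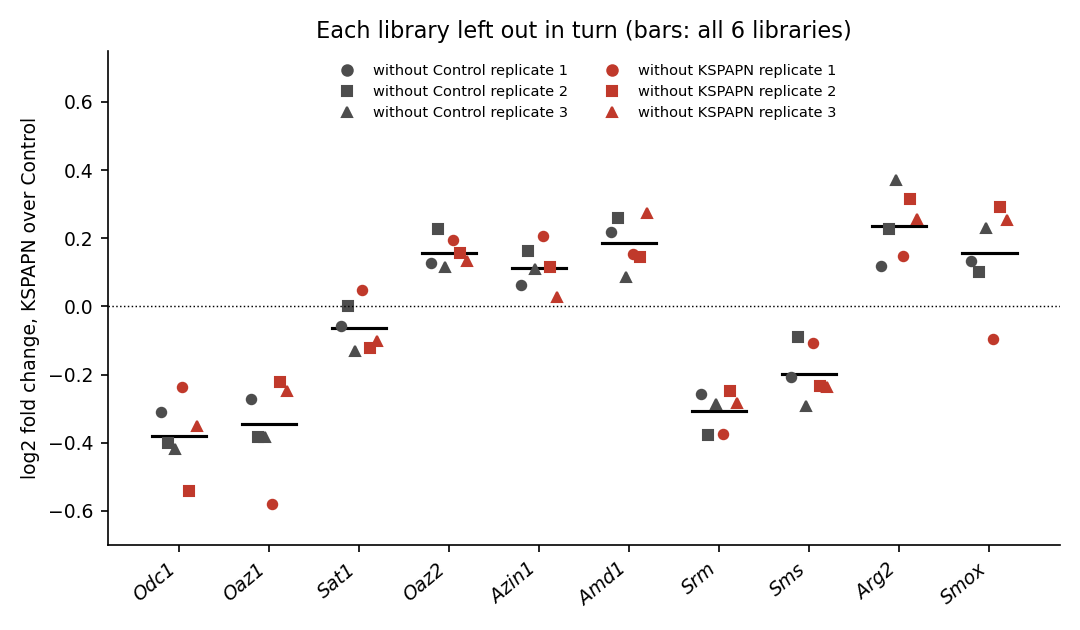
Log2 fold change of KSPAPN over Control for each polyamine gene when each of the 6 libraries was left out in turn, with a symbol and colour for the library left out and a bar for all 6 libraries. *Odc1*, *Oaz1*, *Srm* and *Sms* stayed below 0, *Sat1* and *Smox* crossed it, and leaving out KSPAPN replicate 1 moved *Oaz1* to -0.58.

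Of 41 genes that feed, use, transport or degrade polyamines, 35 passed the filter and 6 did not (*Arg1*, *Otc*, *Oaz3*, *Atp13a4*, *Atp13a5* and *Slc22a3*). By edgeR, 6 of the 35 were lower at an adjusted p under 0.05, which is 17.1% beside the 2.25% of all genes, and 0 were higher. At an unadjusted p under 0.05, 11 were lower, where 11.2% of all genes were, and 1 was higher. Of the 35, 9 had a positive and 26 a negative log2 fold change with a median of -0.08. Of all genes tested, 8307 were positive and 7710 negative, with a median of 0.01. With total counts as the only scaling, 17 of the 35 were positive and 18 negative, and 4 were called lower (edgeR). With that scaling 9848 of all genes were positive and 6169 negative. The list was drawn up with earlier results of these data known, so its count is a description.

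Arginine and ornithine supply held 2 of the 6. *Ass1*, argininosuccinate synthase, which starts renal arginine synthesis from citrulline, had 1079, 1082 and 909 FPKM in Control and 560, 784 and 643 FPKM in KSPAPN libraries. The groups were well apart, and it fell by 0.62 on the log2 scale (SE 0.14, edgeR adjusted p = 0.0423). *Asl*, argininosuccinate lyase, which completes that synthesis, went from 40.3, 31.8 and 34.3 FPKM to 19.4, 25.5 and 25.5 FPKM and fell by 0.59 (SE 0.13, edgeR adjusted p = 0.0388). The 9 tested genes of this role all had negative fitted values, where 7710 of all 16017 genes did. Several of the 9 were near 0, with *Slc7a2* at -0.003, *Oat* at -0.029 and *Slc7a1* at -0.048. *Arg2*, which uses the arginine, was the one polyamine member of this step and had a positive value of 0.24 that did not pass (edgeR adjusted p = 0.586).

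Around S-adenosylmethionine and the recovery of methylthioadenosine, the by-product of the synthases, 2 of 9 genes passed. *Ahcy*, which clears S-adenosylhomocysteine, had 138, 153 and 129 FPKM in Control and 95.1, 103 and 100.3 FPKM in KSPAPN libraries and fell by 0.49 (SE 0.09, edgeR adjusted p = 0.0269). *Mri1*, an isomerase of methylthioadenosine salvage, went from 6.59, 5.69 and 5.84 FPKM to 4.30, 2.84 and 3.41 FPKM and fell by 0.77 (SE 0.17, edgeR adjusted p = 0.0450). Neither gene's groups overlapped. The dehydratase of the same salvage route, *Apip*, lay on the other side at 14.0, 12.8 and 12.5 FPKM in Control and 15.2, 19.5 and 16.6 FPKM in KSPAPN libraries, with a log2 fold change of 0.39 that did not pass (SE 0.14, edgeR adjusted p = 0.172).

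Among 4 genes of polyamine catabolism, *Aldh9a1*, an aldehyde dehydrogenase that oxidises the aminobutyraldehyde derived from putrescine, showed the firmest difference. It had 124, 133 and 108 FPKM in Control and 64.4, 80.7 and 76.0 FPKM in KSPAPN libraries. Every KSPAPN library lay far below every Control library, and it fell by 0.72 (SE 0.11, edgeR adjusted p = 0.0131). Among 8 tested transporters, *Slc22a2*, an organic cation transporter of the basolateral proximal tubule, had 141, 154 and 132 FPKM in Control and 90.3, 106 and 102 FPKM in KSPAPN libraries and fell by 0.51 (SE 0.10, edgeR adjusted p = 0.0259).

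Other transporters had values in the same direction that did not pass. *Slc3a2*, a subunit shared by amino acid exchangers, had a log2 fold change of -0.36 (edgeR adjusted p = 0.153), and *Slc47a1*, which exports cations to the urine, had -0.43 (edgeR adjusted p = 0.178) with overlapping groups. In the hypusine route, which uses spermidine to modify a translation factor, 0 of 4 genes passed (edgeR, 2 at an unadjusted p under 0.05). The hydroxylase *Dohh* had -0.47 (edgeR adjusted p = 0.143) and the factor itself, *Eif5a*, -0.25 (edgeR adjusted p = 0.180), each with groups that did not overlap. With trends against GC content and transcript length removed these were -0.17 and -0.065. *Azin2*, the only tested paralog of the antizymes and their inhibitor, had 0.25 (edgeR adjusted p = 0.615).

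**Figure D5:**
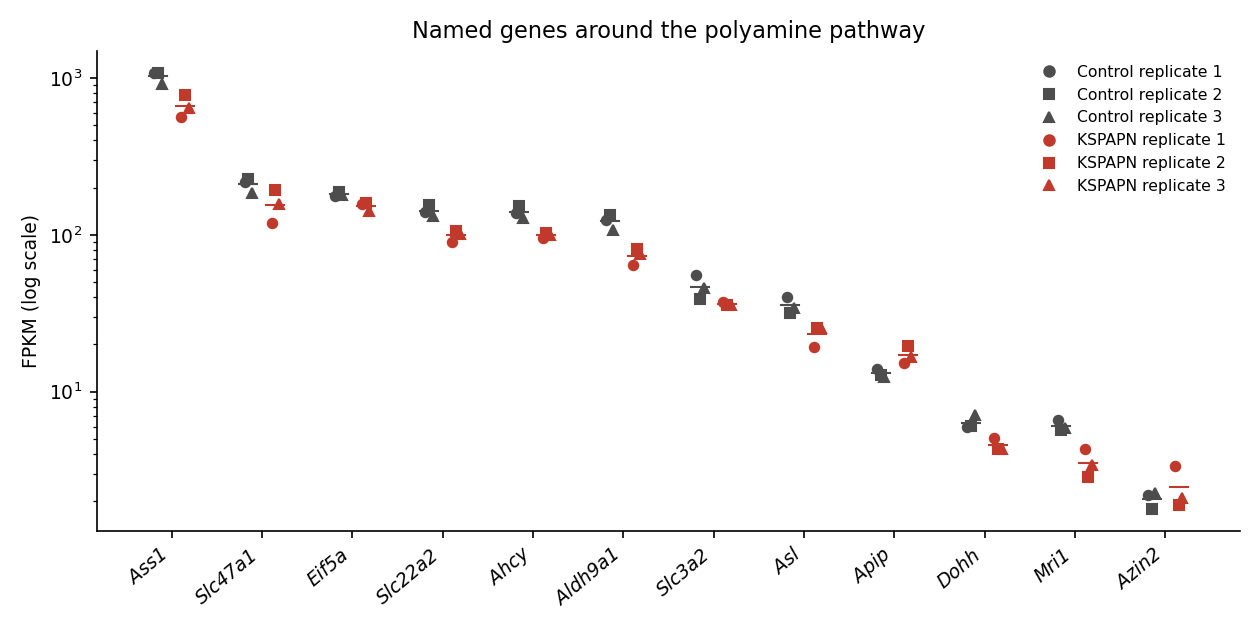
FPKM on a log axis for the genes named around the polyamine pathway, ordered by mean level, with Control libraries in grey, KSPAPN libraries in red, a symbol for each replicate number and a line at each group mean. *Ass1*, *Asl*, *Ahcy*, *Mri1*, *Aldh9a1* and *Slc22a2* passed the edgeR test and were lower in KSPAPN kidneys. Only *Slc47a1* and *Azin2* overlapped between groups, in a set chosen partly because groups did not overlap. Of the 35 genes tested, 11 did not overlap, where 24.4% of all genes did not.

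These 6 calls depended on single libraries. Without Control replicate 1, Control replicate 2 or KSPAPN replicate 3 the count was 0, and without Control replicate 3 or KSPAPN replicate 2 it was 3, in fits that also called fewer of all genes. With GC content and transcript length trends removed 3 of them passed (*Ahcy*, *Aldh9a1* and *Slc22a2*). The log2 fold changes of the 6 stayed negative in every fit. With 1 library left out they were between -0.76 and -0.50 for *Ass1* and between -0.80 and -0.62 for *Aldh9a1*. Under the other alternatives they were between -0.64 and -0.45 for *Ass1* and between -0.72 and -0.64 for *Aldh9a1*. Of 7 proximal tubule markers 1 was lower, *Slc22a6* at -0.46 (edgeR adjusted p = 0.0388), and 6 did not pass, where 2.25% of all genes were lower. Their values were negative for 5 of 7 with a median of -0.20, and their summed FPKM was between 1842 and 2140 in Control and between 1651 and 1779 in KSPAPN libraries. The part of these markers in the 6 calls was not tested.

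Markers of other cells were as follows, beside 2.25% of all genes lower and 0.393% higher at an adjusted p under 0.05 (edgeR). For the thick ascending limb 1 of 4 markers was higher, *Slc12a1* at 0.52 on the log2 scale, and the summed FPKM was between 883 and 996 in Control and between 892 and 1168 in KSPAPN libraries. Of 5 hepatocyte markers 1 was lower, *Ttr* at -1.17 (edgeR adjusted p = 0.0388), and 2 of the 4 tested had positive values, with *Alb* at 0.55 (edgeR adjusted p = 0.716). The summed FPKM of that list was between 71.8 and 149 in Control and between 44.4 and 69.5 in KSPAPN libraries and was almost wholly *Ttr*, while *Alb* was at most 4.46 FPKM in any library. Podocyte markers had 4 positive values of 4 and a median of 0.32, with 0 called by edgeR and 1 higher at an unadjusted p under 0.05. Markers of the distal convoluted tubule, principal cells, intercalated cells, endothelium, fibroblasts, immune cells and adipocytes also gave 0 calls in edgeR. Over these lists 3 markers had an unadjusted p under 0.05, all 3 lower, where 11.2% of all genes were lower at that threshold. They were *Slc4a1* at -0.71, *Slc12a3* at -0.36 and *Aqp3* at -0.32 (edgeR adjusted p = 0.0893, 0.207 and 0.196). The adipocyte sum stayed at or below 1.63 FPKM in every library, and 2 of its 5 markers were at 0 in some library.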

How the data were processed

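Poly(A) RNA of 6 kidney pools was sequenced. The authors deposited a table with a raw count per gene and library (whole numbers, not normalized) and an FPKM scaled by gene length and library size. The submitters' processing notes name STAR 2.5, TopHat, HTSeq 0.6.1, DESeq2 and edgeR without roles. The genome build, annotation, strandedness and handling of reads with several matches were not given in the sources used here. Of 54532 identifiers, 54495 matched GENCODE M21 (GRCm38), which supplied symbols, coordinates and transcripts.

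Groups came from the labels. Counts were tested with edgeR 4.0.16 in R 4.3.3 (TMM factors, minimum count 10, minimum total 15, quasi-likelihood test, two-sided, Benjamini-Hochberg over 16017 genes), in place of the study's test on FPKM. Genes tested held at least 99.8% of counts, and the common dispersion was 0.0225. Standard errors are those implied by the F statistic. Ratios were compared by exact permutation. Fits were tested on simulated counts.

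Alternatives were DESeq2 1.42.0, RLE factors, total counts only, TMM without mitochondrially encoded genes and *Adipoq*, no filter, limma 3.58.1 on log2(FPKM + 1) and log2(FPKM + 0.1), a replicate block, removal of GC content and transcript length trends (natural splines, 5 degrees of freedom), each library left out, and, chosen after seeing the data, the counts of genes sharing a 100-base stretch added to the member. Reads carry no molecular identifiers. Members and lists were chosen with earlier results of these data known. Named beyond the members were pathway genes with an unadjusted p under 0.05, with groups that did not overlap, or most abundant in their role, of which 1 is not reported here. *Gm7993*, *Rps7-ps2*, *Amd2*, *Oaz1-ps*, the marker genes and the 6 genes not tested were named outside that rule. Python 3.11.15, pandas 2.3.3 and matplotlib 3.10.9 handled tables and plots.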

Additional observations from a re-analysis of the deposited data

How the results depend on the processing

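Of 160 log2 fold changes of members under alternatives, 152 kept their direction and their side of the threshold. The exceptions were *Azin1* at -0.040 with GC content and transcript length trends removed, *Sat1* at 0.0017 with total counts only, a left-out range of -0.13 to 0.047 for *Sat1* and of -0.094 to 0.29 for *Smox*, and 3 values of *Odc1* and *Oaz1* that then passed. Members called lower numbered 2 with no filter on low counts (*Odc1*, adjusted p = 0.0105, and *Oaz1*, adjusted p = 0.0311), in a fit that called 301 higher and 1038 lower of 29418 genes, and between 0 and 1 when 1 library was dropped. Other pathway genes called lower numbered 0 on log2 FPKM with either pseudocount (limma, 1 higher and 0 lower of all genes with the pseudocount 1, 2 higher and 8 lower with 0.1, and 10 or 11 of the list lower at an unadjusted p under 0.05), 3 with the GC and length trends removed, and between 0 and 6 when 1 library was dropped. *Azin2* was -0.046 without KSPAPN replicate 1, with a left-out range to 0.41, and the *Odc1* to *Oaz1* log2 ratio ranged from -0.29 to 0.34. The cause of these shifts was not tested. Deviations of same-numbered libraries from their group means had correlations of 0.0537, 0.154 and 0.173. Libraries of unlike number were not compared, so these values cannot settle whether the numbers are pairs. The labels give replicate numbers only, and the main fit did not take them as pairs. With the replicate block 0 members and 7 other pathway genes were called lower (edgeR, 3 members at an unadjusted p under 0.05), among 224 higher and 705 lower of all genes against 63 and 361 without it. No alternative called a member or other pathway gene higher. With 3 libraries a group, the 95% intervals of the members spanned from 0.41 to 0.99 log2 units.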
